A study of Mus musculus with 6 samples.

Results

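The control culture is the reference condition of a study of the deacetylase HDAC2 and the transcription factor Sp3 in mouse neurons, and its expression profile is described here gene by gene. It was chosen by its label: the 2 control libraries of the 6 in the series. All 23235 rows of the deposited table were used, of which 18788 had a control value above 0. The cells were primary cortical and hippocampal cultures from embryos at day 15, grown for 17 days. Cytosine arabinoside (AraC), which kills dividing cells, was given at 1 uM on day 5, and a lentivirus expressing short hairpin RNAs followed on day 12. The protocol states this virus for all samples, and the hairpin that the controls received is not given in the sources used here, so they are control cultures rather than cultures known to be without virus. Strain and pooling of embryos are likewise not given, and the labels do not state whether the 2 libraries are from separate cultures.

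The values are FPKM, the fragments of a transcript scaled to its length and to the number of mapped fragments. The authors deposited 1 control value per gene over both libraries. No value per library, standard deviation or test therefore stands behind a level, and depth is unknown. The precision is given as an error limit: the smaller of the 2 standard errors, on the log2 scale, that are implied by the authors' tests of each knockdown against these controls. It also contains the error of the knockdown libraries, so the error of the control value should be no larger. Its median was 0.14 over rows at or over 1 FPKM, and 99.4% of those rows had one. Ranges in brackets span 2 error limits either way. The levels of 2 genes are called distinct where their log2 ratio is larger than 2 combined limits. Each limit comes from tests of the same gene between groups. It therefore leaves out errors that differ between genes, such as one in the transcript length used, and distinct means only beyond these limits. As a guide to low values, 945 low genes with a single annotated transcript had a peak at 0.0696 FPKM times kilobases. That bin held 67 genes, and the fullest of the other bins held 19. If that step is 1 fragment, 1 FPKM on a transcript of 2 kb is about 28.8 fragments.

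Neurons from the embryonic cortex and hippocampus are mostly glutamatergic projection neurons with a minority of GABAergic interneurons. In culture they extend axons and dendrites and form synapses, while the receptor and channel subunits they make change with age. Astrocytes and oligodendrocyte precursors arise from the same dissociated tissue, whereas microglia, vessel cells and meningeal cells enter the brain from other sources.

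The highest row, Gm20594, is given no class here. Below it, the transcripts that dominated the profile were noncoding RNAs and genes of protein synthesis, followed by the cytoskeleton. A threshold of 1 FPKM was passed by 56.7% of all rows (13173), 10 FPKM by 29.4% (6826) and 100 FPKM by 2.52% (585), and 19.1% were listed at 0 (4447). The median row had 2.28 FPKM. The 10 highest rows held 24.9% of the summed FPKM, the 100 highest held 37.5% and the 1000 highest held 63.2%. A single row, Gm20594, with a locus of 335 bases at chr6:79768024-79768358 (mm9), was listed at 81978 FPKM and made up 17.1% of the sum. Without it the 100 highest rows held 24.7%, an alternative chosen after seeing the data.

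**Figure D1:**
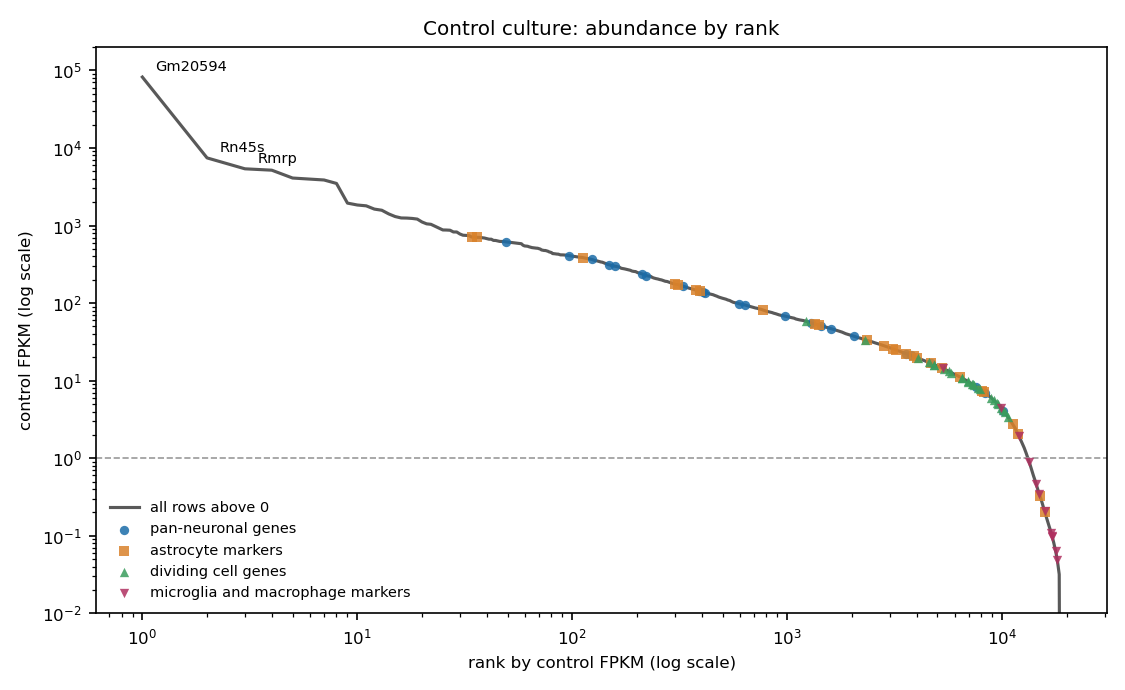
Control FPKM (vertical axis, log scale) against rank (horizontal axis, log scale) for all rows above 0, with members of 4 marker lists as points and 1 FPKM as the dashed line. Gm20594 stands far above rank 2, pan-neuronal genes and most astrocyte markers lie in the upper part of the curve, dividing cell genes in the middle, and most microglial markers under 1 FPKM.

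Among the 30 highest rows, 9 were small or ribosomal RNAs. Rn45s, the precursor of ribosomal RNA, stood at 7438 FPKM, and Rpph1, the RNA of ribonuclease P, at 4092. Malat1, a long nuclear RNA, had 1838 FPKM, and Meg3, the maternally expressed long RNA of the imprinted region on chromosome 12, had 825. Short rows need care, because FPKM divides by a length that is close to or under that of a sequenced fragment. Leaving out rows whose locus is under 300 bases moved the share of the 100 highest rows to 35.5%.

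Leaving Gm20594 aside, the highest row of a protein-coding gene was Lars2, a mitochondrial tRNA synthetase, at 3959 FPKM. Eef1a1, which brings tRNAs to the ribosome, followed at 1944. Lars2 had no error limit, and what the reads of its row contain was not tested. The bracket of Eef1a1 was so wide (4.87 to 776131) that the tests say almost nothing about its error. Ribosomal proteins took 5 of the 30 and 22 of the 100 highest rows, led by Rps2 at 1793 FPKM, Rplp1 at 1573 and Rpl41 at 1410. Of 85 ribosomal protein rows, 73 were at or over 100 FPKM, with a median of 262. The alpha-tubulin Tuba1a, which builds the microtubules of growing neurons, had 1628 FPKM, and Actb, the cytoplasmic actin, had 1036. Secretory and membrane genes ranked as high: Cst3, a protease inhibitor, had 1304 FPKM, Cpe, which trims prohormones, had 1247, and the growth cone protein Gpm6a had 1233. Near-identical copies exist for tubulins, actins and ribosomal proteins, and how reads were shared among copies is not given, so the split among paralogs is uncertain.

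Genes of energy metabolism were abundant. All 17 glycolysis enzymes were at or over 10 FPKM, with a median of 179 and the highest level in Gapdh (623). Of 83 oxidative phosphorylation subunits, 76 were at or over 10 FPKM, led by Cox8a at 826. The general enolase Eno1 (280 FPKM, in a row shared with Gm5506) lay 1.94-fold above the neuronal enolase Eno2 (144). The chaperone Hspa8 reached 1210 FPKM, while its stress-inducible relatives Hspa1a and Hspa1b had 4.71 and 5.17, and Hspb1 was listed at 0. Calmodulin messages included Calm3 at 545 FPKM and Calm2 at 484, with overlapping brackets.

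Marker lists of 21 cell classes were read against the share of all rows at or over 1 FPKM. Median levels reached 1 FPKM in 10 classes. The highest medians were those of pan-neuronal genes (96.5 FPKM) and astrocyte markers (25.3), followed by hippocampal markers (12.9), oligodendrocyte precursor markers (10.7), glutamatergic markers (9.47) and dividing cell genes (9.37). In bulk RNA, fewer cells of a type and less RNA per cell cannot be told apart, so none of these levels is a share of cells. The label calls the samples primary neurons, and the neuronal markers were present with glial ones beside them.

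**Figure D2:**
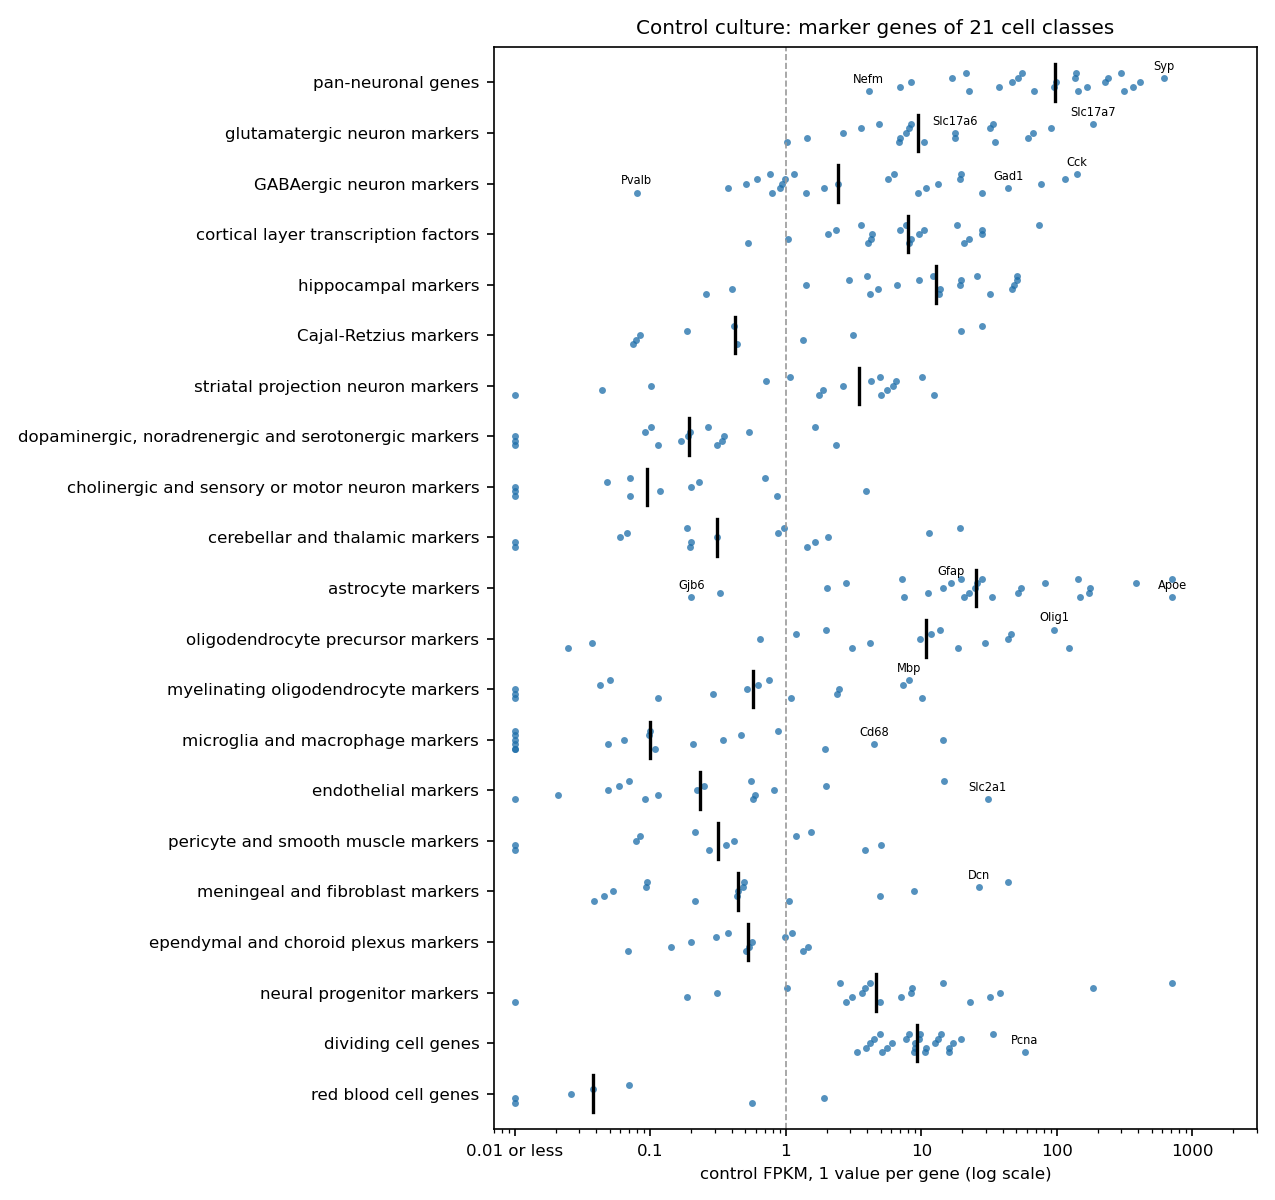
Each point is a marker gene's control FPKM (horizontal axis, log scale, values under 0.01 and zeros drawn at 0.01), by cell class, with the list median as a bar and 1 FPKM as the dashed line. Pan-neuronal genes (median 96.5) and astrocyte markers (25.3) lie furthest right, and the bars of microglial (0.0987), endothelial (0.234) and red blood cell lists (0.0377) lie left of the line.

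All 24 pan-neuronal genes were at or over 1 FPKM, and 21 were at or over 10. Syp, a protein of the synaptic vesicle membrane, was the highest at 617 FPKM, though with a bracket of 125 to 3038. Uchl1, a neuronal deubiquitinase, followed at 408 (273 to 610), Gap43, of the growth cone, at 366 (240 to 557) and the neuronal tubulin Tubb3 at 298 (182 to 488). The nuclear marker Rbfox3 (NeuN) had 22.3 FPKM (19.6 to 25.5). The dendritic protein Mtap2 (MAP2) stood at 311 FPKM and Dcx (doublecortin), of immature and migrating neurons, at 8.33. Neurofilament genes were unequal: Nefl had 55.8 FPKM and Ina had 37.5, whereas Nefh had 6.96 and Nefm had 4.09, the lowest of the list. The Nefm locus overlaps the row A230070E04Rik (9.10 FPKM), and without a stated strand setting reads of the pair cannot be told apart. Of vesicle and release genes, 41 of 42 were at or over 1 FPKM and 32 at or over 10, and of postsynaptic density genes 27 of 27 and 26.

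All 20 glutamatergic neuron markers were at or over 1 FPKM. The vesicular glutamate transporter Slc17a7 (VGLUT1), which fills vesicles in most cortical and hippocampal projection neurons, had 184 FPKM (120 to 281). It lay 10.4-fold above Slc17a6 (VGLUT2, 17.7), beyond the error limit. Slc17a8 (VGLUT3) had 1.43 FPKM. Neurod6, a factor of postmitotic projection neurons, had 31.9 FPKM. Layer factors were mixed. Deep layers were represented by Tle4 (20.7 FPKM), Fezf2 (8.40), Bcl11b (8.13) and Tbr1 (6.95), and upper layers by Cux1 (22.6) and Cux2 (10.5). In all, 19 of 20 layer factors were at or over 1 FPKM, the exception being Foxp2 at 0.527.

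The hippocampal list had 18 of 20 members at or over 1 FPKM. Wfs1, a CA1 pyramidal cell marker in the hippocampus, had 50.6 FPKM, and Mpped1 had 50.7. Prox1, the defining factor of dentate granule cells, had 1.40 FPKM, and Tdo2 and Dsp, also of granule cells, had 0.400 and 0.259. Several members, such as Wfs1 and Calb1, are also expressed in the cortex, so the list does not separate the 2 regions.

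GABAergic markers were split: 16 of 25 (64%) were at or over 1 FPKM, near the 56.7% of all rows. The synthesis enzymes Gad1 and Gad2 had 43.9 FPKM (37.4 to 51.4) and 10.8 (9.38 to 12.4), a 4.07-fold difference beyond the error limit, and the vesicular transporter Slc32a1 had 9.39 (7.86 to 11.2). Subclass markers ranged widely. Somatostatin (Sst) reached 76.0 FPKM (66.1 to 87.4), Reln 28.2, Calb2 19.5 and Calb1 19.3, whereas Npy had 2.42, Vip 0.511 and Pvalb, the marker of fast-spiking interneurons that matures late, 0.0791. Cholecystokinin (Cck), made by interneurons and also by pyramidal cells, was the highest of the list at 141 FPKM. The interneuron lineage factors were low: Dlx1 had 1.91 FPKM and Lhx6 had 0.912.

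Markers of neurons from other regions varied by class. Of 16 striatal projection neuron markers, 12 (75%) were at or over 1 FPKM, beside 56.7% of all rows. Pde10a (12.4) and Meis2 (10.1) led, and the dopamine receptor Drd1a had 6.47. Other members were lower: Ppp1r1b had 2.63, Penk 1.76, Drd2 1.07 and Adora2a 0.712, and 1 was listed at 0. Which cells made these transcripts was not tested. Monoamine markers reached 1 FPKM in 2 of 16 rows: the nuclear receptor Nr4a2 (2.33), which is also an activity-regulated gene, and the vesicular monoamine transporter Slc18a2 (1.63). Th, which makes the dopamine precursor, had 0.35 FPKM, and Phox2a and Pitx3 were listed at 0. Cholinergic, sensory and motor markers reached it in 1 of 12, Prph at 3.91. The Cajal-Retzius list had 4 of 10, where Reln and Calb2 are shared with interneurons, and its defining factor Trp73 had 0.0783.

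Astrocyte markers were at or over 1 FPKM in 24 of 26 rows and at or over 100 in 7. Apoe, the lipid carrier secreted by astrocytes, had 711 FPKM (339 to 1491), and Fabp7, of radial glia and young astrocytes, had 704 (463 to 1070). The glutamate transporters Slc1a2 (GLT-1, 176 FPKM) and Slc1a3 (GLAST, 173) did not differ beyond the error limit. Late and regional markers were far lower: Gfap had 16.7 FPKM (14.1 to 19.6), the water channel Aqp4 had 7.44, S100b had 2.77 and the connexin Gjb6 had 0.201, against 22.3 for the connexin Gja1. Oligodendrocyte precursor markers followed, with 13 of 16 at or over 1 FPKM. The highest were Ptprz1 at 122, Olig1 at 95.1, Olig2 at 46.1 and Pdgfra, the receptor that defines these precursors, at 43.8. Lower members of the list included Sox10 at 4.21, C1ql1 at 3.07 and Bcas1 at 1.99. Those under 1 FPKM were Gpr17 at 0.649, Enpp6 at 0.0373 and Neu4 at 0.0247. Myelin genes were low. Cnp had 10.2 FPKM, Mbp, a main protein of compact myelin, had 8.17, while Mobp and Mag were under 0.1 and Aspa, Klk6 and Opalin were listed at 0.

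Markers of cells from outside the neural lineage were mostly under 1 FPKM. Microglial and macrophage markers reached 1 FPKM in 3 of 18 rows, among them the lysosomal Cd68 (4.5) and the factor Sall1 (1.94). Of their defining genes, C1qa, C1qc, Tyrobp, Tmem119, Fcer1g and Ctss were listed at 0. Others were low but above 0: Aif1 had 0.883 FPKM, Cx3cr1 0.463, P2ry12 0.344 and Csf1r 0.207. Endothelial markers reached it in 3 of 16. These were the glucose transporter Slc2a1 (30.8 FPKM), which astrocytes also make, Mfsd2a (14.6) and Ocln (1.96), while the defining Cldn5 had 0.0907 and Cdh5 had 0.0208. Of the meningeal and fibroblast list 5 of 15 passed, with Pdgfra shared with oligodendrocyte precursors and Dcn at 26.6, and Col1a1 and Col1a2 at 0.439 and 0.0534. Pericyte markers passed in 4 of 12 and red blood cell genes in 1 of 7, a row of Hba-a1 and Hba-a2 at 1.90.

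Genes of dividing cells were present in every case, on day 17 and after the AraC given on day 5. All 26 were at or over 1 FPKM and 11 were at or over 10. The replication clamp Pcna had 58.1 FPKM, the topoisomerase Top2a had 33.6 (28.3 to 39.9) and the proliferation marker Mki67 had 19.5 (16.0 to 23.8). Progenitor markers passed in 17 of 20. Vimentin (Vim) had 186 FPKM, Sox2, a factor of neural stem cells and of astrocytes, had 32.3 and Nes had 22.7, while the intermediate progenitor factor Eomes had 0.308 and Neurog1 was listed at 0. Which cells made these transcripts was not tested. Replication-dependent histones, which are made in S phase and mostly lack poly(A) tails, were at or over 1 FPKM in 67 of 68 rows, with a median of 69.0. The highest was Hist1h4d at 211 FPKM, and these genes are near-identical copies.

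Among glutamate receptor lists the AMPA type, the channels of fast excitation, had the largest summed FPKM, at 482. The sums were 299 for NMDA subunits, 169 for the kainate and delta list and 146 for metabotropic receptors. The kainate and delta list also holds the auxiliary genes Neto2 (33.3 FPKM) and Neto1 (14.3), whereas AMPA auxiliary genes are listed apart. The order of the last 2 sums therefore depends on how the lists were made. Gria2, whose edited subunit makes the channel impermeable to calcium, had 302 FPKM (175 to 521), Gria1 had 126 (103 to 154), Gria4 had 35.4 (32.4 to 38.7) and Gria3 had 18.5 (15.7 to 21.8). Each step in this order was beyond the error limit, and Gria2 lay 2.40-fold above Gria1. All 18 auxiliary genes were at or over 1 FPKM. Among them the olfactomedin Olfm1 had 256 FPKM and the cornichon Cnih2, which slows channel closing, had 103. Of the transmembrane AMPA receptor regulatory proteins (TARPs), Cacng8 had 40.3, Cacng7 36.9, Cacng4 28.3 and Cacng2 (stargazin) 9.15.

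**Figure D3:**
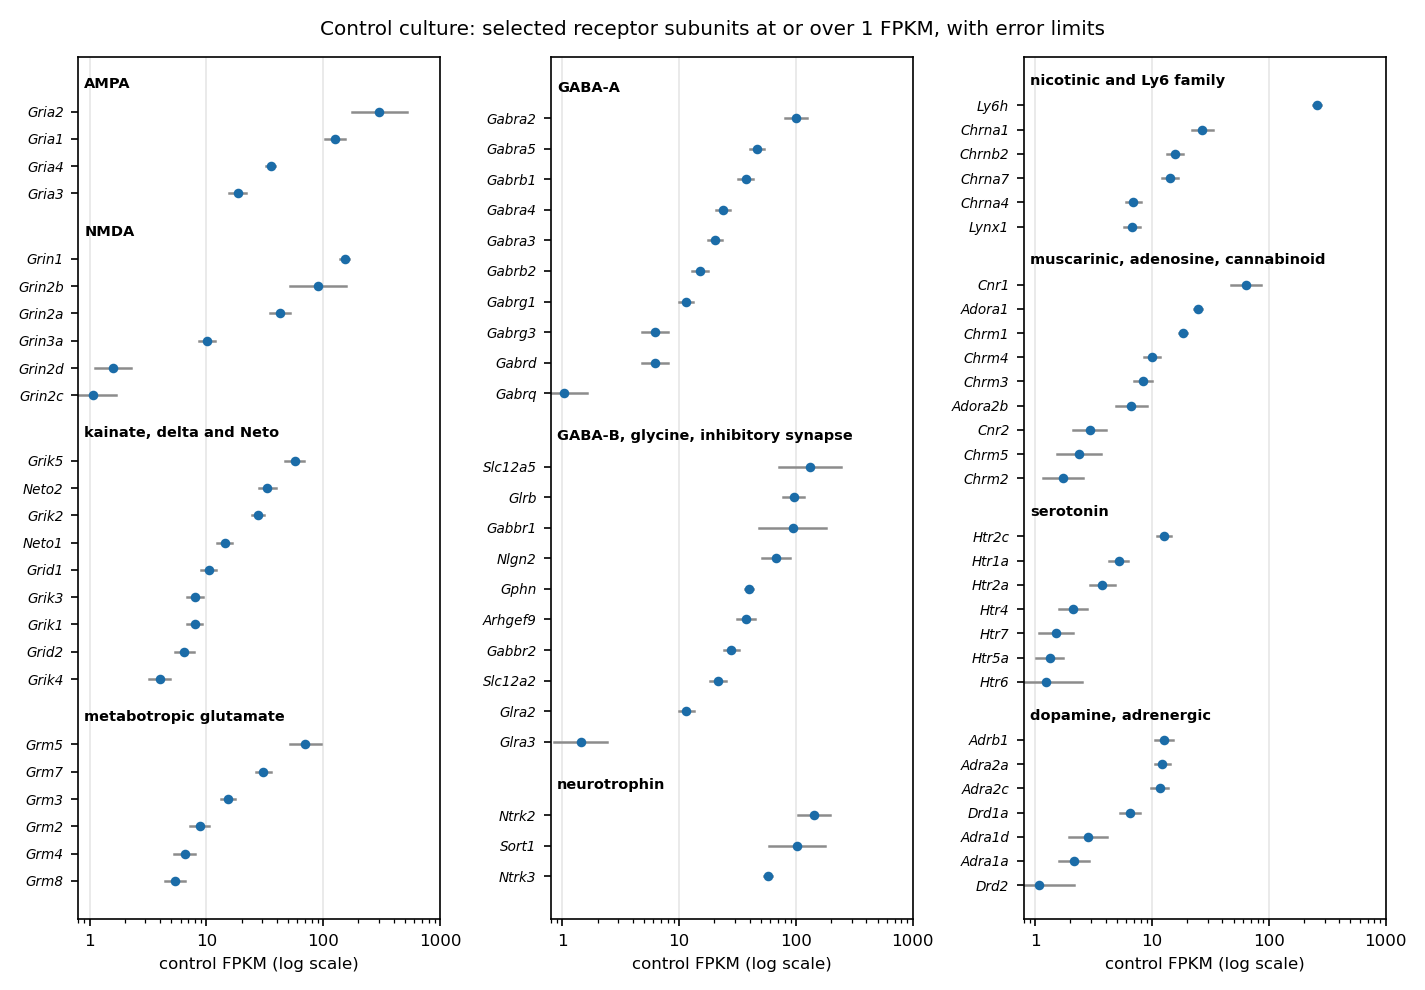
Control FPKM (horizontal axes, log scale) of a selection of receptor subunits and associated genes at or over 1 FPKM, by family, with horizontal bars for 2 error limits either way (bars are cut at the left edge of the axis). Gria2 (302) lies above the other AMPA subunits, Grin2b (90.2) above Grin2a (42.6), and serotonin, dopamine and adrenergic receptors all lie under 20.

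NMDA receptors need the obligatory subunit Grin1, which had 153 FPKM (140 to 168). The early subunit Grin2b had 90.2 (51.8 to 157) and Grin2a, which increases as synapses mature, had 42.6 (35.2 to 51.5). Grin1 and Grin2b were not distinct. Grin2b exceeded Grin2a 2.12-fold, which was beyond the error limit but not with the larger of the 2 implied errors. Grin3a had 10.1 FPKM, and Grin2d, Grin2c and Grin3b had 1.58, 1.07 and 0.461. In the kainate family Grik5 led at 57.1 FPKM, followed by Grik2 at 27.8, with the auxiliary Neto2 at 33.3 and Neto1 at 14.3. Among metabotropic receptors Grm5 was the highest at 70.2 FPKM. Grm7, of presynaptic terminals, had 30.6, Grm3, found in astrocytes as well as neurons, had 15.4, and Grm6, the receptor of retinal bipolar cells, was listed at 0.

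GABA-A receptors, the pentameric chloride channels of fast inhibition, had 13 of 19 subunit genes (68.4%) at or over 1 FPKM. The share of all rows was 56.7%. Gabra2, an alpha subunit already present in young neurons, had 99.96 FPKM. Gabra5, the extrasynaptic subunit of the hippocampus, had 46.4 (40.1 to 53.6), Gabrb1 had 37.0 (32.1 to 42.7) and Gabra4 had 23.7 (20.5 to 27.4). Gabra5 and Gabrb1 were distinct, and so were Gabrb1 and Gabra4. Gabrd, also extrasynaptic, had 6.19 FPKM, and the cerebellar Gabra6 had 0.0669. The chloride exporter Slc12a5 (KCC2), which makes GABA inhibitory as neurons mature, had 131 FPKM (71.4 to 241), against 21.3 (18.3 to 24.9) for the importer Slc12a2 (NKCC1). This 6.15-fold difference was beyond the error limit. Slc12a2 is also made by glia. Of glycine receptors the embryonic Glra2 had 11.5 FPKM and the adult Glra1 had 0.140, with Glrb at 95.7. The synaptic scaffolds Gphn and Nlgn2 had 39.6 and 67.5.

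Modulatory receptors were lower, with exceptions. The cannabinoid receptor Cnr1 had 63.7 FPKM (47.8 to 84.8), the adenosine receptor Adora1 had 24.6 and the muscarinic Chrm1 had 18.3. The PACAP receptor Adcyap1r1 was the highest peptide receptor at 43.2 FPKM, followed by Oprl1 at 23.2, while the opioid receptors Oprm1 and Oprk1 had 0.194 and 0.0931. Serotonin receptors reached 1 FPKM in 7 of 14 rows (50%, beside 56.7% of all rows), with Htr2c the highest at 12.6. Of neurotrophin receptors Ntrk2 (TrkB) had 142 FPKM and Ntrk3 (TrkC) had 57.6, while Ngfr had 0.899. In the nicotinic family the highest subunit was Chrna1, the alpha subunit of the muscle receptor, at 26.9 FPKM (21.8 to 33.1), above Chrnb2 (15.7) and Chrna7 (14.2) of brain receptors. No other row overlapped its locus, chr2:73401337-73418363 (mm9). The other muscle subunits were under 1 FPKM, with Chrnb1 at 0.669, Chrnd at 0.0621 and Chrng listed at 0.

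Sodium channels, which carry the action potential, were unequal. Scn2a1 had 168 FPKM with a wide bracket of 43.9 to 647, Scn8a had 27.0 (24.7 to 29.5), Scn3a, of embryonic neurons, had 26.8 (21.9 to 32.7) and Scn1a, rich in fast-spiking interneurons, had 13.7 (11.8 to 15.9). Scn2a1 lay 6.24-fold above Scn8a, the subunit that takes over at mature axon initial segments, and Scn8a and Scn3a were not distinct. Scn10a, of peripheral sensory nerve, had 0.0473. Calcium channels were more even: Cacna1e (R-type) had 43.8 FPKM (27.4 to 69.9), Cacna1a (P/Q-type) 32.6 (30.7 to 34.7) and Cacna1b (N-type) 32.4 (29.6 to 35.5), with a ratio of 1.01 between the last pair. The L-type Cacna1c had 27.8 FPKM and Cacna1d had 10.5, and the skeletal muscle and retinal subunits Cacna1s and Cacna1f had 0.330 and 0.114.

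**Figure D4:**
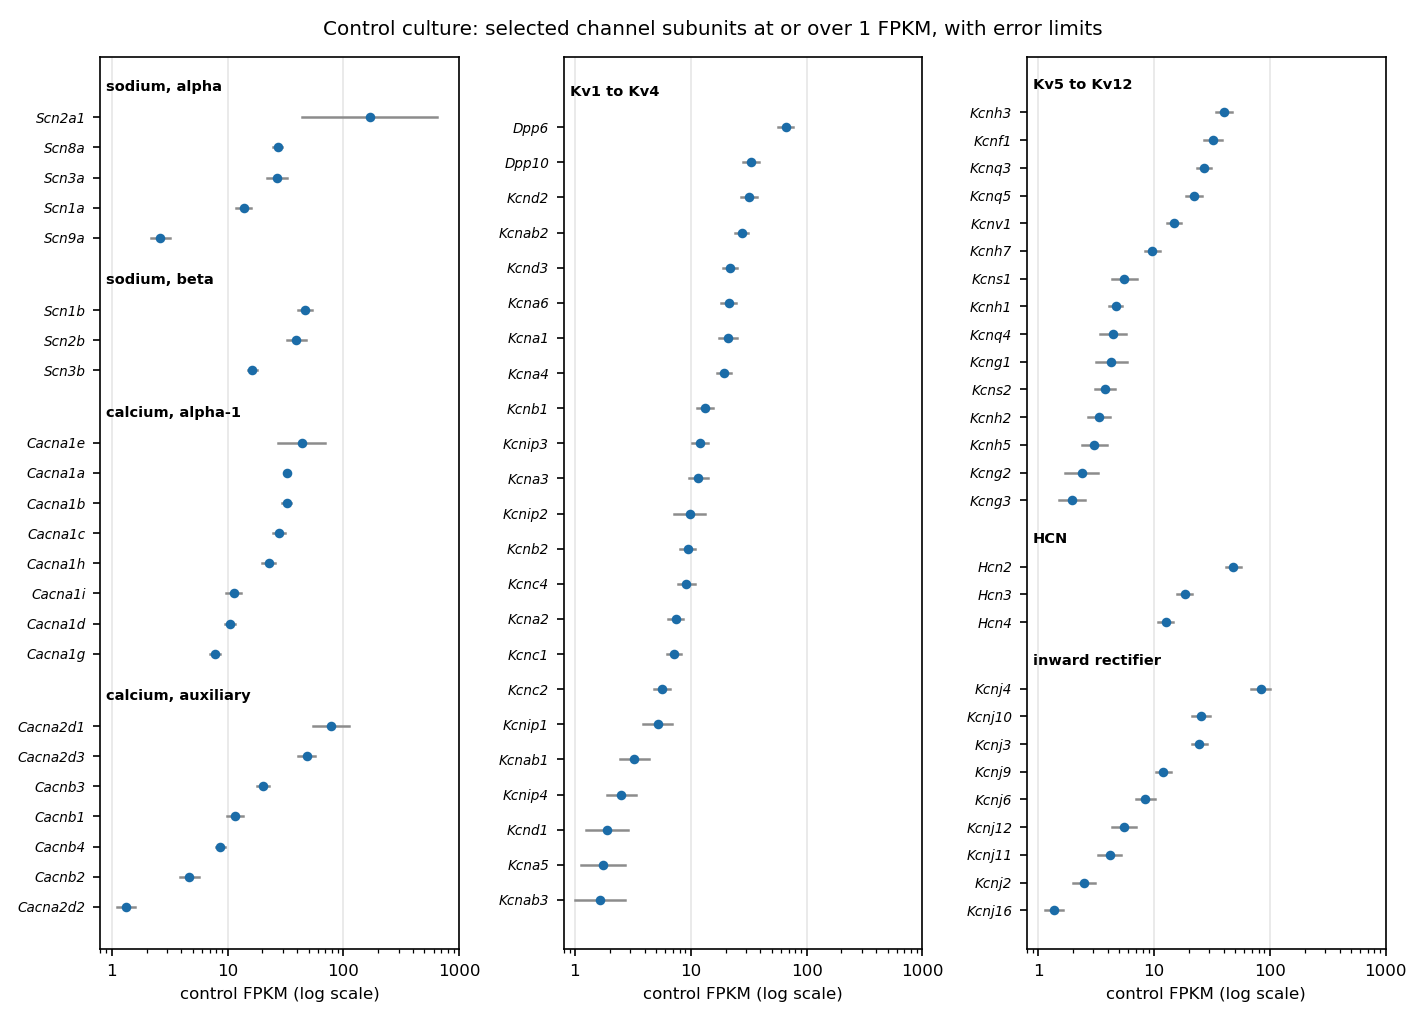
Control FPKM (horizontal axes, log scale) of a selection of voltage-gated and inward rectifier channel and partner genes at or over 1 FPKM, by family. Horizontal bars are 2 error limits either way. Scn2a1 (168) stands above the other sodium channels with the widest bar, the leading calcium channel alpha-1 subunits lie close together, and potassium channels form a graded series.

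The Kv1 to Kv4 list, which holds partner genes as well as channel genes, had 24 of 26 members at or over 1 FPKM. This was 92.3%, beside 56.7% of all rows. The Kv4 partner Dpp6 had 66.1 FPKM and Kcnd2 (Kv4.2), of dendritic A-type current, had 32.0. Kcna6, Kcna1 and Kcna4 stood at 21.3, 20.97 and 19.3 and were not distinct as neighbours. The Kv3 genes, known for fast-spiking cells, were lower, with Kcnc4 at 9.16, Kcnc1 at 7.20 and Kcnc2 at 5.68. Of the M-current subunits, which damp repetitive firing, Kcnq3 had 27.1 FPKM (23.5 to 31.2) and Kcnq5 had 22.2 (19.0 to 26.0), which were not distinct. Hcn2 led the pacemaker channels at 48.3 FPKM, distinct from the next, Hcn3 (18.4), and all 4 HCN genes were at or over 10. Of inward rectifiers Kcnj4 had 83.5 FPKM and Kcnj10, the astrocyte channel, had 25.6. The resting sodium leak channel Nalcn had 41.7.

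The granins, proteins of dense-core vesicles, and neuropeptides spanned a wide range, with 7 of 33 genes at or over 100 FPKM and 12 under 1. Scg2 had 326 FPKM (169 to 630), Scg5 305, Vgf 304 and Scg3 201. Oxt and Crh, of hypothalamic neurons, had 0.268 and 0.244, and Avp and Hcrt were listed at 0. Bdnf had 22.8 FPKM. The promoters of Sst and Scg2 are shown because both hold the cyclic AMP response element (CRE) in its full palindrome TGACGTCA, marked in capitals. This motif was held by 1.79% of the 32851 RefSeq promoter windows of 300 bases on GRCm38.p6. Among protein-coding genes with a matched window, 1 per gene, the share was 2.44%. Each sequence is the 250 bases before the RefSeq start, at chr16:23890845-23891094 on the minus strand and chr1:79440027-79440276 on the minus strand, and the CRE begins 48 and 68 bases before the start.
Sst: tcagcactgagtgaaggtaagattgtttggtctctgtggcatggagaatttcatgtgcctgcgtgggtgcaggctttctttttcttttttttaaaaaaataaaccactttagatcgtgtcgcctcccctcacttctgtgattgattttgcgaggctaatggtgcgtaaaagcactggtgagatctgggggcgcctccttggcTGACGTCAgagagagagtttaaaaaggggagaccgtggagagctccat
Scg2: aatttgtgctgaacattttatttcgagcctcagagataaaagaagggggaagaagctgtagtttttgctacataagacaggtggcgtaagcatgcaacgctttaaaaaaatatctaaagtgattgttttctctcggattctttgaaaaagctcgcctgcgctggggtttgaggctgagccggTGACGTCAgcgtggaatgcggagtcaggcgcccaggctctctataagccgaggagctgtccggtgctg
The other genes of the neuropeptide list with a CRE in the window were Chgb (114 FPKM) and Cartpt (2.95), so the motif was found at both high and low levels. Under 80% of that list had a window, so no share of it is given.

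Activity-regulated genes, whose transcription follows calcium entry, were at or over 1 FPKM in 31 of 32 rows and at or over 10 in 22. Egr1 had 74.1 FPKM (60.2 to 91.3), Junb 66.7 (56.6 to 78.6), Fos 59.8 (50.5 to 70.9) and Arc 49.2 (41.4 to 58.6). Npas4, which responds to depolarisation, had 29.4 (25.2 to 34.4) and Nr4a1 had 34.0. Inhba was under 1 FPKM at 0.738. Of 26 of these genes with a RefSeq window, 19 held a GC box, the letters GGGCGG or CCGCCC to which Sp factors bind, and 6 a TATA box, TATAAA or TTTATA, beside 48.8% and 12.99% of all matched protein-coding genes (35.7% and 13.6% of all windows). Of 61 histone genes with a window, 57.4% held a TATA box and 37.7% a GC box, above and below the shares over all matched genes. Of 23 dividing cell genes 82.6% held a GC box and none a TATA box, while in 918 olfactory receptor genes, a family mostly listed at 0, the shares were 1.09% and 41.3%. The promoters of Fos, chr12:85473640-85473889 on the plus strand, and Hist1h4d, chr13:23581318-23581567 on the plus strand (GRCm38.p6), are shown because both hold either motif, in capitals. The TATA box begins 33 bases before the start in Fos and 32 in Hist1h4d.
Fos: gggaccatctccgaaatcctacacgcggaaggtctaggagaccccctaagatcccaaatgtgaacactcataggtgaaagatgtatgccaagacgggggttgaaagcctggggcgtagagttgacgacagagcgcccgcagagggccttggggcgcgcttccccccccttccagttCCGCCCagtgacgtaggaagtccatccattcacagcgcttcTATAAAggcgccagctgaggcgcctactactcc
Hist1h4d: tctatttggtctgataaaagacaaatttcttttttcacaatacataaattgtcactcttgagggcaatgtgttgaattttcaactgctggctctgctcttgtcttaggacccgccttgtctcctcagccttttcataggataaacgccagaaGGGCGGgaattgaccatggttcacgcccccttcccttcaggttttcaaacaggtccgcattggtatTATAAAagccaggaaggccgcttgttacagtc

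The transcription factors of 29 families without the numbered Zfp genes made 650 rows. Of these, 353 (54.3%) were at or over 1 FPKM and 122 (18.8%) at or over 10, beside 56.7% and 29.4% of all rows, and only 2 were at or over 100. Those were Ybx1, a cold shock domain protein that also binds RNA, at 268 FPKM (167 to 429), and the thyroid hormone receptor Thra at 176 (126 to 247). Olig1 (95.1), Atf4 of the integrated stress response (92.8), Egr1 (74.1), Srebf2 of sterol synthesis (68.9) and Junb (66.7) followed. Mef2c, of excitatory neuron differentiation, had 61.5 FPKM (48.9 to 77.3).

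**Figure D5:**
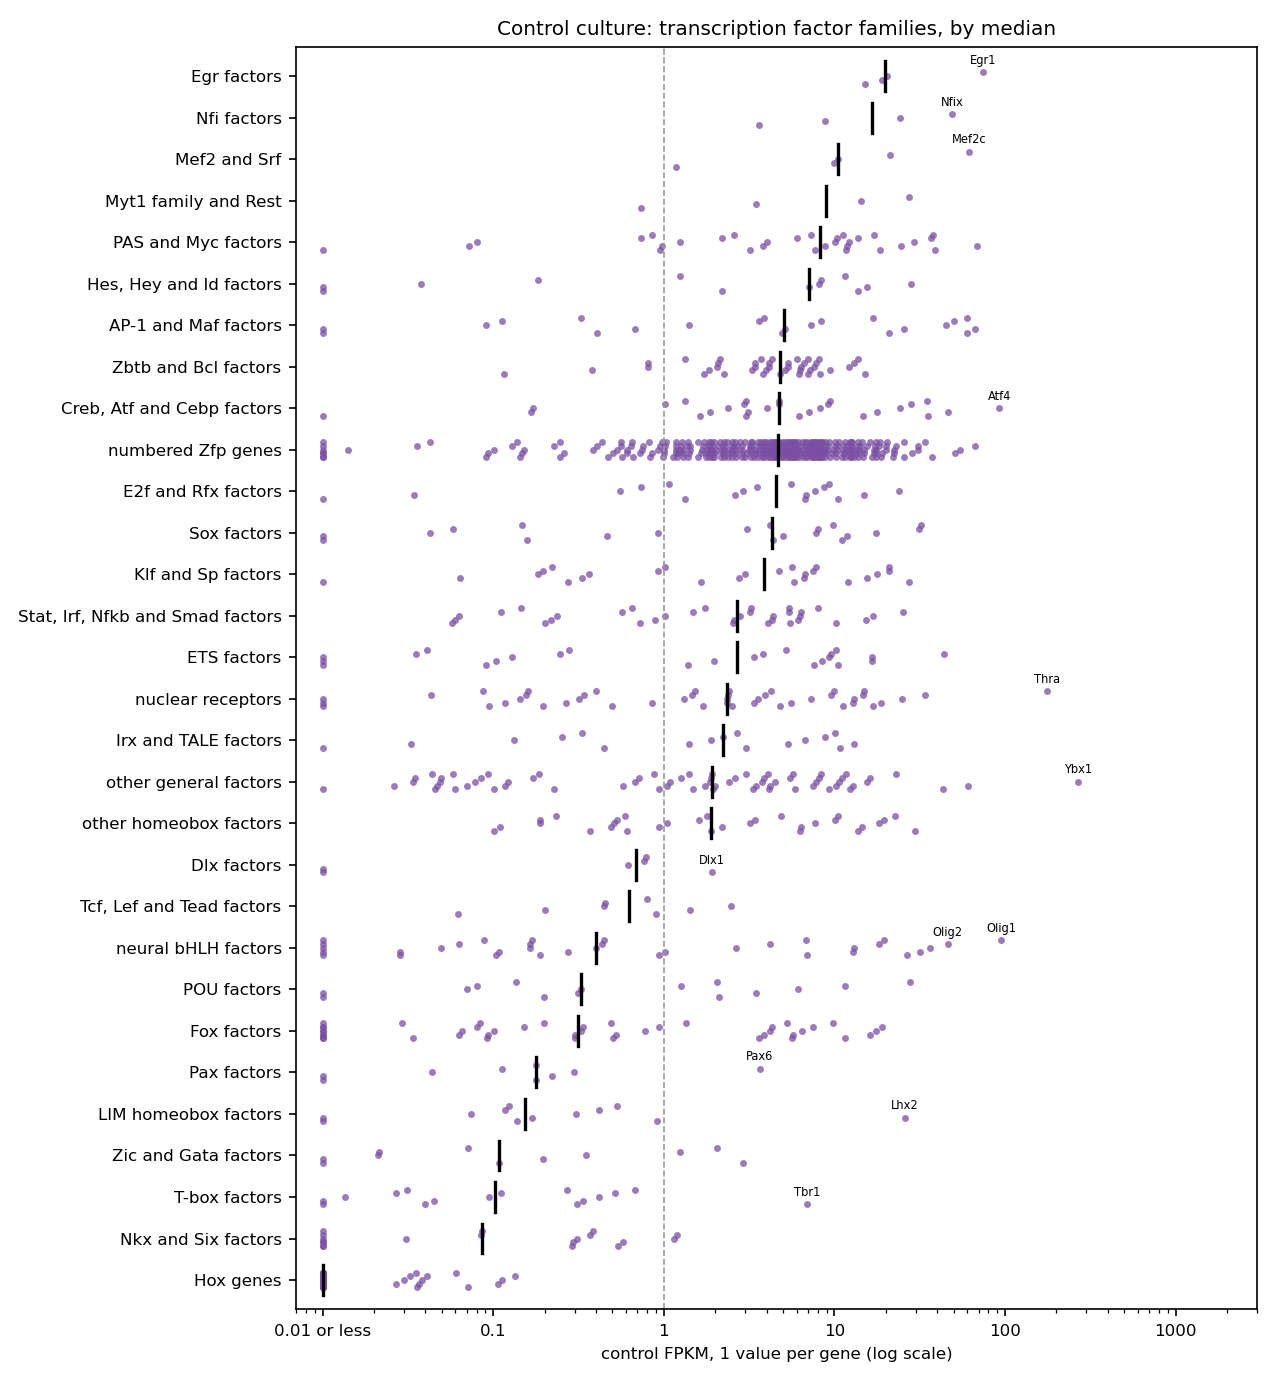
Each point is a transcription factor gene's control FPKM (horizontal axis, log scale, zeros and values under 0.01 drawn at 0.01), by family in the order of the median, shown as a bar, with 1 FPKM as the dashed line. The Egr (median 19.7) and Nfi (16.6) families lie at the top and Hox genes at the bottom, with no Hox gene at or over 1 FPKM.

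Families differed by region of use. None of the 39 Hox genes, which pattern the hindbrain, spinal cord and trunk, reached 1 FPKM, and 26 were listed at 0, the highest being Hoxb9 at 0.135. A single member stood out in several homeobox and patterning families: Lhx2 (25.8 FPKM), a cortical selector gene, was the only LIM homeobox gene of 12 at or over 1, Pax6 (3.64) the only Pax gene of 9, and Tbr1 (6.95) the only T-box gene of 16. Nuclear factor I genes were high as a family, with Nfix at 49.0 FPKM, Nfib at 24.3, Nfia at 8.84 and Nfic at 3.59. Numbered Zfp genes, many of them KRAB repressors, were at or over 1 FPKM in 317 of 364 rows with a median of 4.68. That is 87.1%, above the 56.7% of all rows. At or over 10 FPKM were 19.5%, below the 29.4% of all rows. Rest, the repressor of neuronal genes outside neurons, had 3.48 FPKM.

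The targets of the study were themselves expressed. Hdac2, a class I deacetylase of corepressor complexes, had 49.4 FPKM (42.5 to 57.4), 6.38-fold above its close relative Hdac1 at 7.74 (6.16 to 9.73), beyond the error limit. Hdac3 had 60.5 FPKM and Hdac8 had 3.31. The neuronal class IIa enzyme Hdac5 had 40.01. Sp3, a zinc finger factor that binds GC boxes, had 15.5 FPKM (13.7 to 17.5), 1.98-fold above Sp1 at 7.82 (6.74 to 9.06). Sp4, the neuron-enriched member, had 5.65. The promoters of Hdac2, chr10:36974294-36974543 on the plus strand, Sp3, chr2:72980447-72980696 on the minus strand, and Slc17a7, chr7:45163671-45163920 on the plus strand (GRCm38.p6, the more upstream of 2 RefSeq windows for Sp3), are shown with GC boxes in capitals. There are 1, 2 and 3 of them, the last pair overlapping by a base, and the nearest begins 20, 23 and 13 bases before the start.
Hdac2: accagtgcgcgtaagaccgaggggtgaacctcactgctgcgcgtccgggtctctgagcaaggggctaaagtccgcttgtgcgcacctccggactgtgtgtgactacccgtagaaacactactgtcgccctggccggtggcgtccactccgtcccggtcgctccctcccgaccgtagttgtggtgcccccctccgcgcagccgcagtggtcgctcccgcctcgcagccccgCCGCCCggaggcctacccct
Sp3: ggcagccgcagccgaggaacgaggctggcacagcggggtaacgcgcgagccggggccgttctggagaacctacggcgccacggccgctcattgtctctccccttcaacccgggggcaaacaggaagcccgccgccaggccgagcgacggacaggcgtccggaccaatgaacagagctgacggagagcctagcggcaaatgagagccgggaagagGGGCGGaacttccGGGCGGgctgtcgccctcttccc
Slc17a7: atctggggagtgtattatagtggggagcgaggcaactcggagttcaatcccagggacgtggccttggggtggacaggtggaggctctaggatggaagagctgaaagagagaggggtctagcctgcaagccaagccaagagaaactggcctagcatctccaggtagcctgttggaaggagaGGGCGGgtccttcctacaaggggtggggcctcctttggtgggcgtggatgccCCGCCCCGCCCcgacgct
A match of letters is not a binding site, and no binding was measured here.

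MicroRNA rows were mostly empty, with 474 of 615 listed at 0 and 109 at or over 1 FPKM. Of those 109, 57 had a locus of their own under 200 bases, and the others were listed with a longer locus. On chromosome 12, between 110075182 and 110987667 (mm9), 33 of 57 rows were at or over 1 FPKM. This interval, which spans Meg3 and was set by the outermost of those 33 rows, held 30.3% of the rows at or over 1 FPKM and 9.27% of all microRNA rows. Because passing rows set its ends, the shares are no measure of enrichment. Some of these rows also share a deposited locus, as Mir453, Mir409, Mir541, Mir369 and Mir3072 do at 110973190-110987667. A mature microRNA is shorter than the inserts of such a library, so these rows do not measure mature microRNAs. Mir132 had 47.0 FPKM at chr11:74987183-74987249 and Mir212 had 34.1 at chr11:74986889-74986980 (mm9), neighbours that are induced by neuronal activity as a joint precursor. Their mature 3p forms in RefSeq share the seed AACAGUC (bases 2 to 8, in capitals).
mmu-miR-132-3p: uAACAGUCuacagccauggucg
mmu-miR-212-3p: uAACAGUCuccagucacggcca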

How the data were processed

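The 2 control libraries of RNA sequencing were made with a TruSeq RNA kit according to the labels' protocols. TopHat, Bowtie, Cuffdiff and the build mm9 are named, without versions, in the submitters' processing notes. Annotation, RNA selection, strand setting and the handling of multiply mapped reads are not given there. Per the file headers, the authors deposited 1 control FPKM per gene, identical in both tables for 100% of rows. The test statistic, a score deposited by the authors, served with their log2 fold change only for the error limit, and implied errors over 5 were dropped. A run on simulated data checked only the arithmetic, because the formula fixed its outcome in advance. How the authors' statistic was formed was not tested.

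No test was run. Rows were ranked and counted at 1, 10 and 100 FPKM, list members were matched by symbol and synonym, and 30 gene pairs were set against the error limit. The members and lists were chosen with earlier results of these data known. Genes eligible to be named were the 30 highest rows, the 20 highest transcription factors, members of lists of at most 20 genes, the 5 highest and the defining markers of longer lists, the pairs and the study's targets. The text and figures give a part of them, and some are not reported here; the text adds some further list members chosen after their values were seen. Loci are given in mm9 as deposited, and a locus can hold several genes. RefSeq sequences are on GRCm38.p6, with the most upstream window used per gene. A window was found for 79.9% of protein-coding rows, under the 80% needed, so a planned comparison of motifs by level is void. Alternatives varied thresholds, filters, pseudocount (0.1 or 1), scaling and the implied error. Python 3.11.15, pandas 2.3.3, numpy 2.4.6 and matplotlib 3.10.9 were used.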

Additional observations from a re-analysis of the deposited data

How the results depend on the processing

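The 13173 rows at or over 1 FPKM became 14280 at a threshold of 0.5, 11898 at 2, 12998 among rows with status OK only and 14346 with values rescaled to a fixed sum as in TPM. The share of the 100 highest rows, 37.5%, was 35.5% over rows with a locus of at least 300 bases, 38.2% without ribosomal protein rows and, in alternatives added after seeing the data, 24.7% without Gm20594 and 34.2% without small and ribosomal RNA rows. The number of cell classes with a median at or over 1 FPKM lay between 10 and 13. Of 27 pairs with an error limit, 22 lay beyond it, 22 with a pseudocount of 1 and 19 with the larger implied error, where Grin2a and Grin2b, Camk2a and Camk2b, and Eno2 and Eno1 no longer did. Of 52 lists' counts and medians under their alternatives, 18 values moved and 190 did not. No paired analysis was possible because the authors deposited 1 value per gene for the group, and leaving out a replicate was not possible for the same reason. Depth limits the lowest values: if the step seen among low genes is 1 fragment, 3 fragments on a transcript of 2 kb are 0.104 FPKM, so differences among genes near or under that level are not readable.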

Other observations

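Transcripts of both sex chromosomes were present in the control culture. Xist, the RNA that coats the inactive X, had 44.9 FPKM (24.9 to 80.7), and the Y-linked genes Eif2s3y, Ddx3y, Kdm5d and Uty had 17.6, 9.66, 4.10 and 2.57. Tsix, the antisense partner of Xist, had 0.0327, and without a stated strand setting reads of the pair cannot be told apart. Chromosomes differed in the share of rows at or over 1 FPKM: it was highest on chromosomes 18 (68.0%) and 12 (66.0%) and lowest on the Y (33.3% of 12 rows), the X (45.6%) and chromosome 7 (46.9%), beside 56.7% of all rows.

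Families that brain cells are not known to use were nearly empty. In some a member stood apart, named here after the values were seen. Of 1094 olfactory receptor rows, 975 were listed at 0 and Olfr613 alone was at or over 1 FPKM, at 28.0, with the next, Olfr692, at 0.623. Among 315 vomeronasal receptor rows, Vmn1r58 had 31.2 FPKM and the next, Vmn2r55, had 2.61. Of 51 keratins, Krt12, a keratin of the cornea, had 4.08 and Krt77 had 2.97. No other row overlapped the loci of Olfr613, Vmn1r58 or Krt12. Defensins and keratin-associated proteins had no row at or over 1 FPKM. The highest row, Gm20594, and Lars2 also overlapped no other row, and what their reads contain was not tested.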
